A study of Homo sapiens with 6 samples.

Results

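The 42 genes described here encode enzymes that make serine, pass its carbon through folate, and build the ribose, purine, pyrimidine and deoxynucleotide parts of nucleotides. They were chosen by gene symbol, all 42 were rows of the deposited count table of 27470 genes, and 39 of them had enough counts to be tested. Messenger RNA was read near its 3ʹ end in 22Rv1 cells, a human prostate cancer line, that carried a doxycycline (Dox)-inducible ABHD5 transgene. This line is called 22Rv1-ABHD5. The study's methods describe a lentiviral vector and G418 selection, so the cells were a selected population and all 6 libraries came from cells with the transgene. There were 3 libraries from cells kept without Dox and 3 from cells kept with Dox, each for 48 h. The Dox concentration used for these libraries is not given in the sources used here. Parental 22Rv1 cells given Dox were not analysed here, so Dox itself and the transgene cannot be told apart. The labels do not say whether the replicates were separate cultures, so the p-values measure the spread between these libraries, which may be technical.

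Cells make serine from a glycolytic intermediate, and serine hydroxymethyltransferases move one of its carbons onto folate, leaving glycine. The loaded folates carry that carbon into the purine ring and into thymidylate, while the pentose phosphate pathway supplies the ribose. Ribonucleotide reductase then turns ribonucleotides into the deoxynucleotides used to copy DNA, and several of these enzymes are made mainly in dividing cells.

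The 6 libraries held 3394672 to 7271771 counts in gene rows. Reads that the counting assigned to no feature were 32.5% to 34.6% of the counts without Dox and 35.6% to 39.5% with Dox. These shares did not overlap. ABHD5, the induced gene, was measured at 63.5, 58.0 and 62.8 CPM (counts scaled to the library total, with TMM factors) without Dox and at 126, 131 and 91.7 CPM with Dox. It was higher with Dox by 0.91 on the log2 scale (SE 0.15, adjusted p = 1.978e-04). Whether all reads of the transgene were counted as ABHD5 was not tested, so this value is not read as the size of the induction. Every adjusted p given here is from the quasi-likelihood test of edgeR, corrected by Benjamini-Hochberg over all genes tested. All 9 prostate luminal markers were detected, and their summed level was 1442 to 1517 CPM without Dox and 898 to 991 CPM with Dox. Of these 9 markers 5 fell (55.6%, beside 13.7% of all genes tested) and 0 rose. The T cell gene CD3E and the endothelial genes PECAM1 and VWF had 0 counts in all libraries, and the 9 markers of other cell types together reached 4.96 to 9.43 CPM without Dox and at most 10.5 CPM with Dox. Of these 9, 2 had enough counts to be tested, and COL1A1, a collagen gene of fibroblasts, rose from 2.43 to 5.49 CPM (log2 fold change 1.22, adjusted p = 0.0313) with overlapping groups. The part of the marker changes in the results below was not tested.

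With Dox, 12 of the 39 tested members fell (30.8%), 1 rose (2.56%) and 26 did not pass the test. Among all 12233 genes tested, 25.5% passed, 13.7% lower and 11.9% higher. The members that fell were PHGDH, SHMT1, RRM1, RRM2, TK1, DTYMK, CAD, CTPS1, PRPS2, ADSL, PGD and TKT, and the member that rose was IMPDH1. The median log2 fold change of the members was -0.32, with a range of -1.18 to 1.23, beside 0.016 for all genes tested. In 36 of the 39 members the fold change was below 0, AMT, IMPDH1 and PRPS1 being the exceptions, beside 48.5% of all genes tested. In 24 members (61.5%) the 3 libraries with Dox were all below the 3 without, an arrangement found in 20.5% of all genes tested. The calls of 6 members were lost in at least 1 alternative setting, and PHGDH, RRM1, RRM2, TK1, DTYMK, ADSL and IMPDH1 kept theirs in all 14.

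**Figure D1:**
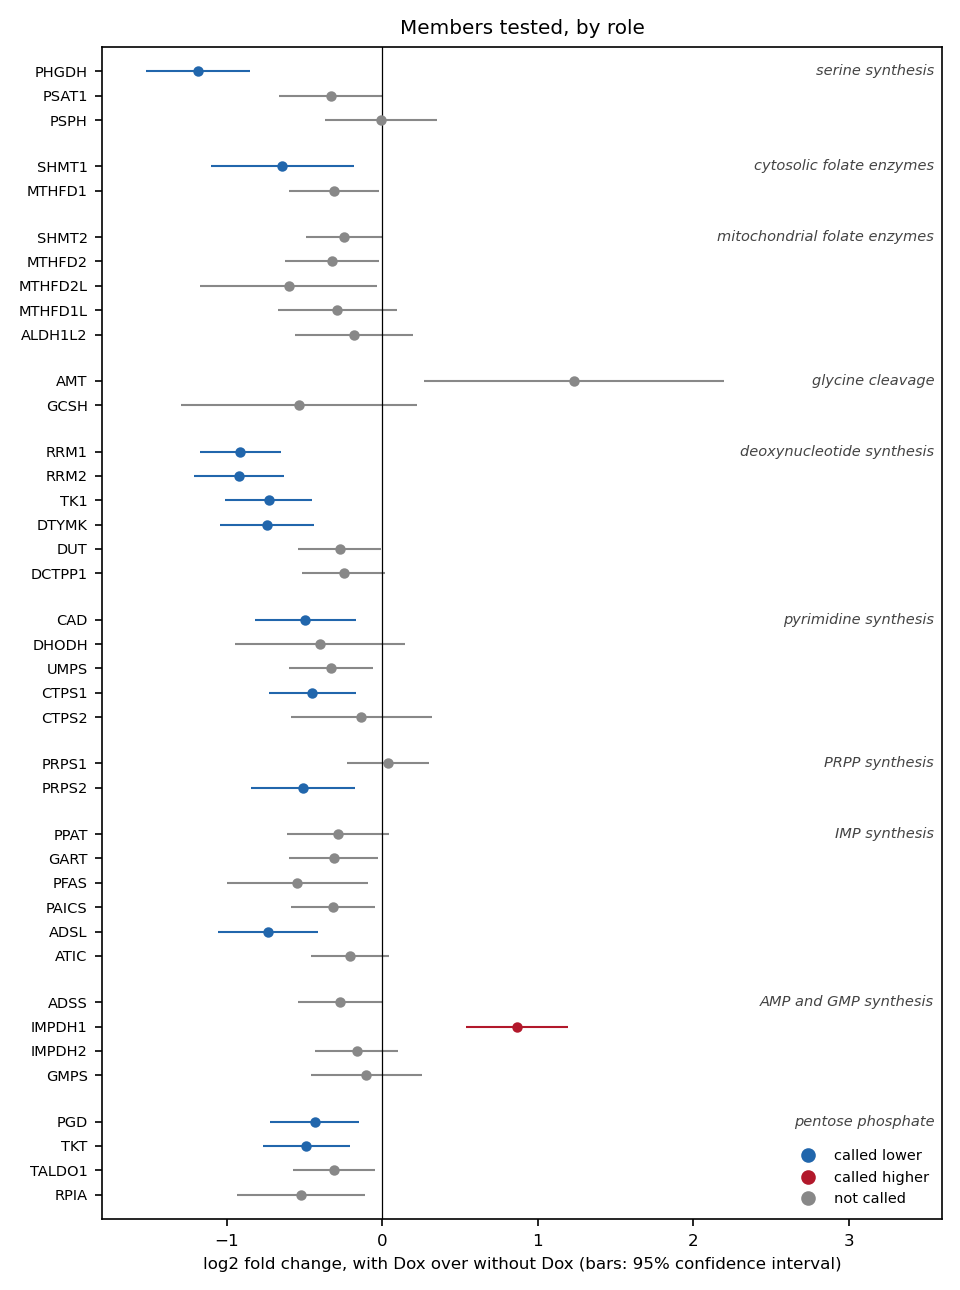
Log2 fold change (Dox minus no Dox) of the 39 tested members, ordered by role, with 95% confidence intervals derived from the F statistic of the edgeR test. The 12 members called lower and IMPDH1, the member called higher, are coloured, and PHGDH has the lowest value, -1.18.

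Of the members that fell, the start regions of the 5 with the lowest adjusted p are shown because a short element, the CCAAT box, occurred in all of them. Each sequence is the 150 bases before a start listed by RefSeq (GRCh38.p14), written 5ʹ to 3ʹ on the strand of the gene, with CCAAT, or its reverse complement ATTGG, in capitals.
PHGDH, chr1:119711784-119711933, plus strand: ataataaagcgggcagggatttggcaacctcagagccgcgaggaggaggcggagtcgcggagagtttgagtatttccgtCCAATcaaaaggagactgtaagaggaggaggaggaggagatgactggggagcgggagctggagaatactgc
RRM1, chr11:4094535-4094684, plus strand: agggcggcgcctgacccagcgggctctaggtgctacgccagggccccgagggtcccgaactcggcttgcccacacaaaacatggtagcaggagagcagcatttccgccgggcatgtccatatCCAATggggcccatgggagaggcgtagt
RRM2, chr2:10122589-10122738, plus strand: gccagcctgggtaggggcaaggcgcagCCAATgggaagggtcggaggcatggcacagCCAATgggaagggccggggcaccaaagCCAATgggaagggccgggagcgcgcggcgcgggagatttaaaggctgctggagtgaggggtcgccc
TK1, chr17:78187053-78187202, minus strand: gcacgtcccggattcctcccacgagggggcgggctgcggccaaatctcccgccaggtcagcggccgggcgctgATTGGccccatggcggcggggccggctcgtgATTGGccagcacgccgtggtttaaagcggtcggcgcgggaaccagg
DTYMK, chr2:241686816-241686965, minus strand: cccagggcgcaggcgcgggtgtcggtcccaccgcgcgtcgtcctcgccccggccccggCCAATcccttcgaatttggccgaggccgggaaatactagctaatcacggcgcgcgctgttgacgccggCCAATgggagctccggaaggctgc
RRM2 and TK1 have 2 starts each in that table, and the start nearest the 5ʹ end of the canonical transcript is shown. Within 250 bases before any listed start, CCAAT on either strand was found in 9 of the 11 members that fell and had an entry (81.8%), and in 21 of 37 members with an entry (56.8%). The same letters were found in 42.5% of the 9332 tested genes with an entry and in 37.0% of all 27305 genes with one. CTPS1 and PRPS2 were the members that fell and had no match. Other elements were also searched on both strands. The E2F letters TTTCCCGC, TTTCGCGC, TTTGCCGC and TTTGGCGC were found in 13.5% of the members and 5.92% of the tested genes, and among the members that fell in PRPS2 alone. TTTGAA, the only letters searched for the cell cycle homology region, were found in 18.9% of the members and 11.7% of the tested genes. Among the members that fell, TTTGAA was found in RRM1 alone. The E-box CACGTG was found in 16.2% of the members and 11.5% of the tested genes, and in none of the 11 that fell. TGATGNAA, the letters of an ATF4 element, were found in MTHFD1L alone among the members (2.7%) and in 2.23% of the tested genes. A match is a run of letters and not a measured binding site, and PSPH, SHMT2, ALDH1L2, IMPDH2 and ADSL had no entry.

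Of the 3 enzymes of serine synthesis, PHGDH (chr1:119648411-119744218), which oxidises phosphoglycerate in the first step, had the largest decrease of any member. PHGDH was at 56.2, 73.5 and 59.4 CPM without Dox and at 24.8, 26.4 and 31.1 CPM with Dox. The highest library with Dox was well under the lowest without, and the mean was 63.0 ± 9.23 CPM without Dox and 27.5 ± 3.29 CPM with Dox (SD, n = 3 each), a change of -56.4%. The log2 fold change was -1.18 (SE 0.16, 95% interval -1.52 to -0.85, adjusted p = 3.046e-05). PSAT1, the transaminase of the middle step, was at 62.7, 49.0 and 52.4 CPM without Dox and at 49.4, 35.3 and 45.1 CPM with Dox. Its groups overlapped by a narrow margin, and its log2 fold change of -0.33 did not pass the test (adjusted p = 0.138). PSPH, the phosphatase that releases serine, averaged 27.3 CPM without Dox and 26.9 CPM with Dox, with a 95% interval of the log2 fold change from -0.36 to 0.35. The 3 enzymes of this short pathway therefore had values between -1.18 and -0.0071 in the same libraries.

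A list of ATF4, the transcription factor of the amino acid response, and genes known as its targets, with no gene among the members, gave 3 lower and 3 higher among 14 tested. Each share was 21.4%, beside 13.7% lower and 11.9% higher among all genes tested. The median log2 fold change of the list was 0.09. Its summed level went from 866 ± 2.99 CPM without Dox to 769 ± 20.3 CPM with Dox (-11.2%), without overlap. ASNS, asparagine synthetase, fell by 0.62 on the log2 scale, while SESN2, another gene of the list, rose by 0.52. CHAC1, a glutathione-degrading enzyme, rose by 1.23, from only 11, 6 and 18 counts without Dox. ATF4 itself was lower in every library with Dox, with a value of -0.29 that did not pass the test (adjusted p = 0.0887).

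Among the cytosolic folate enzymes SHMT1 fell, and none of the 5 mitochondrial enzymes passed the test with all libraries. Without no-Dox replicate 2, MTHFD2 and MTHFD2L were called lower. SHMT1 (chr17:18327860-18363563), the cytosolic serine hydroxymethyltransferase, was at 22.5, 20.2 and 26.2 CPM without Dox and at 15.9, 9.74 and 17.7 CPM with Dox. The groups did not overlap, and the log2 fold change was -0.64 (SE 0.22, adjusted p = 0.0385). This call was lost in 6 of 14 alternative settings, among them leaving out Dox replicate 1. The 3ʹ end of SHMT1 overlaps an exon of SMCR8 on the other strand, and the use of strand in counting is not given in the sources used here. MTHFD1, the cytosolic enzyme that interconverts the folate forms, had a value of -0.31 (adjusted p = 0.106). ALDH1L1, which oxidises formyl folate, had 1 count in 1 library with Dox and 0 in the other libraries. By library totals, without TMM factors, 3 counts correspond to 0.413 to 0.884 CPM.

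SHMT2, the mitochondrial counterpart of SHMT1, was at 219, 224 and 202 CPM without Dox and at 184, 173 and 188 CPM with Dox. Every library with Dox was lower, yet the log2 fold change of -0.24 did not pass the test (adjusted p = 0.145). MTHFD2, the dehydrogenase of the next mitochondrial step, was at 202, 141 and 197 CPM without Dox and at 147, 131 and 155 CPM with Dox, with overlapping groups (log2 fold change -0.32, adjusted p = 0.112). The 3ʹ ends of SHMT2 and MTHFD2 overlap exons of NDUFA4L2 and SLC4A5 on the other strand. MTHFD2L, a relative of MTHFD2, had -0.60 (adjusted p = 0.115). MTHFD1L, which releases formate, had -0.29, and ALDH1L2, the mitochondrial formyl folate dehydrogenase, had -0.18. The summed level of the 5 mitochondrial enzymes was 458 ± 24.5 CPM without Dox and 377 ± 18.9 CPM with Dox.

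The glycine cleavage system was near the lower limit of these libraries. AMT, its aminomethyltransferase, was at 4.70, 2.17 and 2.27 CPM without Dox and at 3.04, 12.5 and 6.44 CPM with Dox. The groups overlapped, the 3 libraries with Dox were widely spread, and the log2 fold change of 1.23 (95% interval 0.27 to 2.20) did not pass the test (adjusted p = 0.0573). Without Dox replicate 2 the value was 0.70, and it passed the test in 5 of 13 alternative settings. The 3ʹ end of AMT overlaps exons of another annotated gene on the same strand. GCSH, the lipoyl carrier protein, had -0.54 (adjusted p = 0.302), and GLDC, the decarboxylase, had 0 to 2 counts in each library.

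Deoxynucleotide synthesis held 4 of the 12 members that fell, out of 6 tested in this role (66.7%), beside 13.7% of all genes tested. RRM1 (chr11:4094707-4138932), the large subunit of ribonucleotide reductase, was at 678, 630 and 707 CPM without Dox and at 365, 379 and 328 CPM with Dox. The groups were far apart, and its mean fell from 672 ± 38.7 to 357 ± 26.4 CPM (log2 fold change -0.91, SE 0.12, adjusted p = 3.175e-05). RRM2 (chr2:10120698-10211725), the small subunit made in S phase, was at 127, 151 and 161 CPM without Dox. With Dox it was at 84.6, 66.0 and 81.0 CPM, again below every library without Dox (log2 fold change -0.92, SE 0.14, adjusted p = 9.51e-05). RRM2B, the alternative small subunit, which is not a member, rose from 51.7 to 70.8 CPM (log2 fold change 0.46, adjusted p = 0.0166).

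TK1 (chr17:78174091-78187233), the cytosolic thymidine kinase, was at 125, 139 and 120 CPM without Dox and at 82.9, 66.0 and 81.4 CPM with Dox. DTYMK (chr2:241675747-241686944), which phosphorylates thymidylate, was at 107, 109 and 103 CPM without Dox and at 68.7, 49.5 and 70.8 CPM with Dox. Neither gene's groups overlapped, and the log2 fold changes were close to each other, -0.73 for TK1 (SE 0.13, adjusted p = 5.754e-04) and -0.74 for DTYMK (SE 0.14). DUT, which removes dUTP, and DCTPP1, which hydrolyses dCTP, had smaller values of -0.27 and -0.25 that did not pass the test. TYMS (chr18:657653-673578), thymidylate synthase, had only 8, 5 and 9 counts without Dox and 8, 11 and 3 counts with Dox and was not tested. Its 3ʹ end overlaps exons of ENOSF1 on the opposite strand, a gene named here after its values were seen, which averaged 73.8 CPM without Dox and 56.2 CPM with Dox. Whether reads of TYMS were counted there was not tested, so its low level is not read as low expression.

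The summed level of the deoxynucleotide enzymes changed by -36.6%, from 1524 ± 69.0 to 966 ± 56.2 CPM. Other genes that mark S phase and are not members moved beside them. Of 21 tested, 16 were lower (76.2%, beside 13.7% of all genes tested) and 0 higher. Their median log2 fold change was -0.71, and their summed level went from 3493 ± 3.79 to 2322 ± 121 CPM (-33.5%). CDT1, a replication licensing factor, fell by 0.98 on the log2 scale, MCM7, a subunit of the replicative helicase, by 0.90, and PRIM1, a primase subunit, by 0.88. In these bulk libraries a smaller share of cells in S phase and less RNA per cell cannot be told apart.

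**Figure D2:**
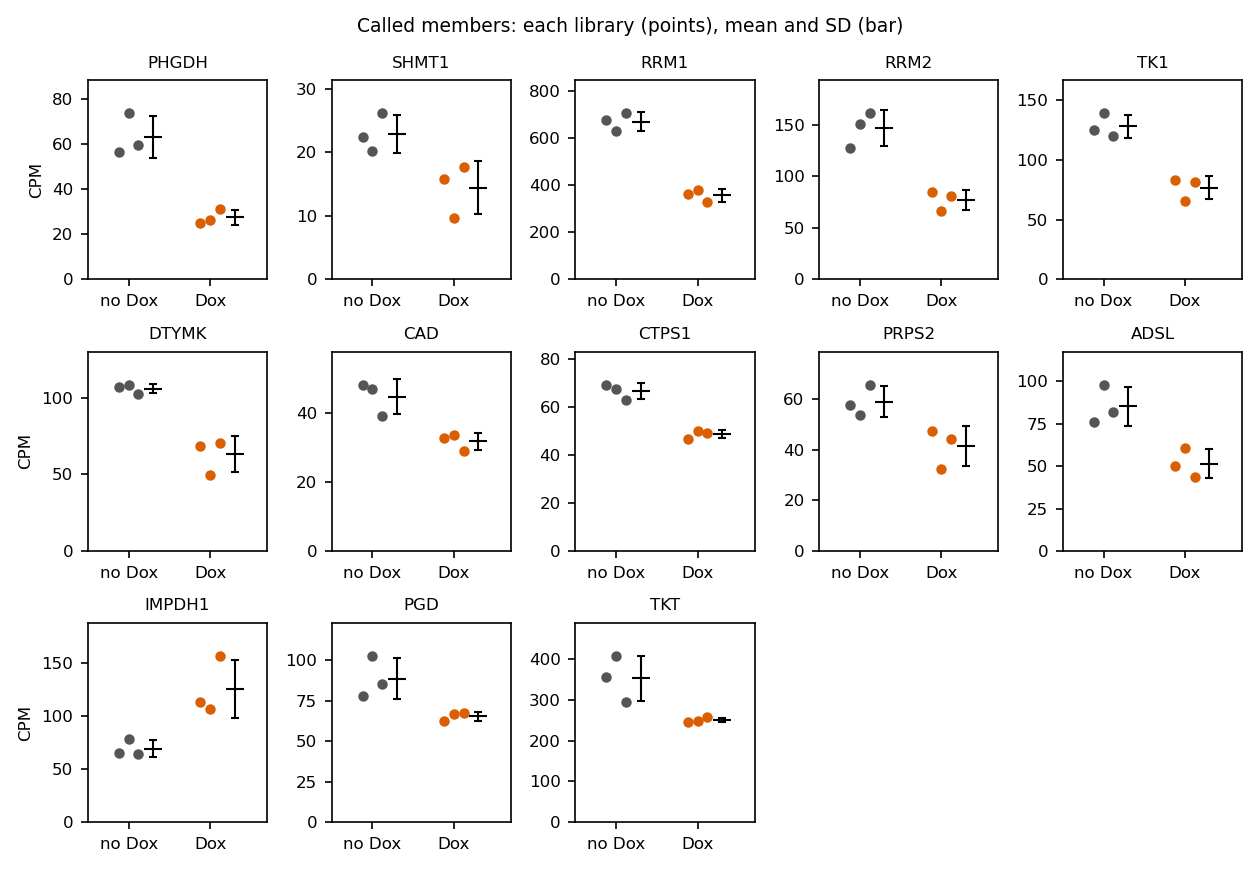
Level in each library (TMM-normalised CPM, linear axes from 0) of the 13 members called, with a point for each of the 3 libraries of a condition and, beside them, the mean and SD. The 2 conditions are separate for every gene shown, and IMPDH1 is the one with the Dox libraries on the upper side.

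Pyrimidine synthesis held 2 members that fell, out of 5 tested (40%), beside 13.7% of all genes tested. CTPS1 (chr1:40979300-41012565), which makes CTP from UTP, was at 69.2, 67.6 and 63.0 CPM without Dox and at 46.8, 50.1 and 49.1 CPM with Dox. Its groups were tight and separate, and the log2 fold change was -0.45 (SE 0.13, adjusted p = 0.0189). CTPS2, which catalyses the same reaction, was at 13.8, 16.7 and 15.9 CPM without Dox and at 11.5, 13.1 and 17.1 CPM with Dox, with overlapping groups and a 95% interval of -0.59 to 0.32. CAD (chr2:27217369-27243943), the protein that carries the first activities of the pathway, was at 48.3, 47.1 and 39.1 CPM without Dox and at 32.8, 33.7 and 29.0 CPM with Dox (log2 fold change -0.49, SE 0.15, adjusted p = 0.0260). UMPS, which completes UMP, was lower in every library with Dox but missed the threshold (log2 fold change -0.33, adjusted p = 0.0697), and DHODH, the mitochondrial dehydrogenase, had -0.40 (adjusted p = 0.285). The call of CTPS1 was lost in 3 and that of CAD in 5 of 14 alternative settings, leaving out Dox replicate 1 among them for both.

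Of the 2 enzymes that make phosphoribosyl pyrophosphate (PRPP), the activated ribose, PRPS2 fell and PRPS1 did not pass the test. PRPS2 (chrX:12791355-12824222) was at 57.7, 54.0 and 65.8 CPM without Dox and at 47.6, 32.6 and 44.1 CPM with Dox, without overlap (log2 fold change -0.51, SE 0.16, adjusted p = 0.0257). PRPS1 was at 83.8, 85.9 and 89.7 CPM without Dox and at 82.2, 88.2 and 95.1 CPM with Dox, and its interval was -0.23 to 0.30. The call of PRPS2 was lost in 4 of 14 alternative settings.

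On the route to IMP, the first complete purine nucleotide, all 6 enzymes had negative values and only ADSL passed the test. ADSL (chr22:40346461-40390463), adenylosuccinate lyase, acts both on this route and in making AMP. It was at 76.0, 98.0 and 81.7 CPM without Dox and at 50.2, 60.7 and 43.7 CPM with Dox, without overlap (log2 fold change -0.73, SE 0.15, adjusted p = 0.001695). The log2 fold change was -0.55 for PFAS, -0.32 for PAICS, -0.31 for GART, -0.28 for PPAT, which catalyses the committed step, and -0.21 for ATIC, which closes the ring, with adjusted p from 0.0721 for PFAS to 0.218 for ATIC. PPAT and PAICS lie head to head on chromosome 4 with 125 bases between their annotated starts, and the 3 libraries with Dox were all lower for PAICS but overlapped with the others for PPAT. ATIC was measured with little spread, at 123 ± 1.89 CPM without Dox and 106 ± 0.704 CPM with Dox. The summed level of the 6 enzymes was 548 ± 35.1 CPM without Dox and 430 ± 22.5 CPM with Dox.

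Of the 4 enzymes that lead from IMP to AMP and GMP, IMPDH1 rose, the only member that did, and the other 3 had negative values that did not pass the test. IMPDH1 (chr7:128392277-128409986), which makes the precursor of GMP from IMP, was at 65.3, 78.5 and 63.9 CPM without Dox and at 113, 107 and 156 CPM with Dox. The lowest library with Dox was above the highest without, and the mean rose from 69.2 ± 8.04 to 125 ± 27.0 CPM (log2 fold change 0.87, SE 0.16, adjusted p = 5.045e-04). Pseudogenes named after a gene can share reads with it, and 17 of the 42 members have them in the annotation, IMPDH1 with 10, DUT with 8, MTHFD2 and PAICS with 7 each and, among the members that fell, RRM2 with 3 and SHMT1 and PGD with 1 each. The 3ʹ ends of IMPDH2 and ADSS likewise overlap exons of another annotated gene on the same strand. IMPDH2, the form of this enzyme induced in proliferating cells, was at 142, 131 and 130 CPM without Dox and at 124, 105 and 129 CPM with Dox. All 3 values with Dox were lower, the gap was under the spread within groups, and the log2 fold change was -0.17 (95% interval -0.43 to 0.099, adjusted p = 0.367). ADSS, which commits IMP to AMP, had -0.27 (adjusted p = 0.130). GMPS, which completes GMP, had -0.10 (adjusted p = 0.706) with overlapping groups. The summed level of these 4 enzymes overlapped between conditions.

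Of the 4 pentose phosphate enzymes on the list, 2 fell. TKT (chr3:53224712-53256052), transketolase, was at 355, 406 and 295 CPM without Dox and at 246, 248 and 257 CPM with Dox. The libraries without Dox were much more spread than those with Dox, and the groups did not overlap (log2 fold change -0.49, SE 0.13, adjusted p = 0.0115). PGD (chr1:10398592-10420511), the dehydrogenase that forms ribulose phosphate, fell by 0.43 on the log2 scale (SE 0.14, adjusted p = 0.0262). TALDO1, transaldolase, and RPIA, ribose phosphate isomerase, were also below in every library with Dox but missed the threshold (adjusted p = 0.0779 and 0.0587). The call of TKT was lost in 2 and that of PGD in 3 of 14 alternative settings.

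Where 2 genes encode forms of one enzyme or its subunits, their ratio within each library does not depend on the scaling between libraries. The counts are per gene without correction for length, so only the change of a log2 ratio is read here. Of 7 pairs tested, the groups were separate for 2. The log2 ratio of IMPDH2 to IMPDH1 was 1.11, 0.74 and 1.02 without Dox and 0.14, -0.019 and -0.27 with Dox, a mean change of -1.01. The log2 ratio of PRPS1 to PRPS2 was 0.54, 0.67 and 0.45 without Dox and 0.79, 1.43 and 1.11 with Dox, a mean change of 0.56. Both had p = 0.1 in an exact two-sided permutation test, the smallest that 3 against 3 libraries allow, and 0.35 after Benjamini-Hochberg adjustment over the 7 pairs. The ratio of RRM2 to RRM1 changed by -0.013 (exact permutation p = 1), both subunits having fallen. The remaining changes were 0.46 for SHMT2 to SHMT1, -0.28 for CTPS1 to CTPS2, 0.22 for MTHFD2 to MTHFD2L and 0.040 for MTHFD1L to MTHFD1, and the groups overlapped in each. Without Dox replicate 2 the change of SHMT2 to SHMT1 was 0.23 and that of MTHFD2 to MTHFD2L 0.38, and without Dox replicate 3 the latter was 0.058. CTPS1 to CTPS2 changed by -0.13 without Dox replicate 3 and by -0.17 without no-Dox replicate 1.

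**Figure D3:**
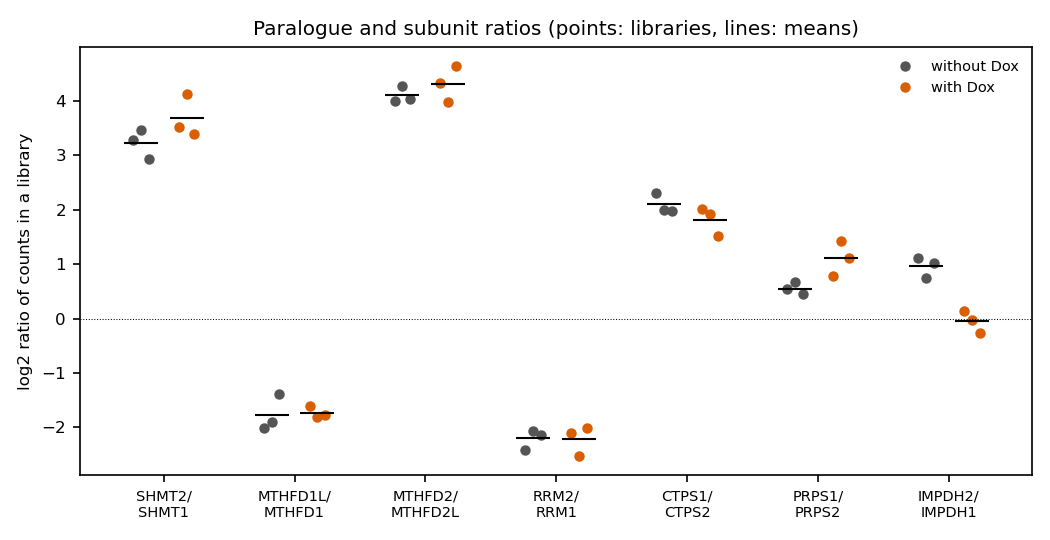
Log2 ratio of the counts of 2 related genes within each library for the 7 pairs tested, with a point for each of the 3 libraries without and with Dox and a line at each mean. The points of IMPDH2/IMPDH1 and of PRPS1/PRPS2 are separate between the conditions, and those of the other 5 pairs overlap.

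Other genes of these pathways, 58 in all and none of them members, gave 12 lower (24.0%) and 8 higher (16.0%) of 50 tested. Among all genes tested 13.7% were lower and 11.9% higher. The median log2 fold change of these other genes was -0.04. In the folate and methionine cycle 4 of 10 tested fell and 0 rose. GGH, which trims folate chains, fell by 0.66 on the log2 scale, and SLC19A1, the folate carrier, and AHCY, which clears adenosylhomocysteine, fell too. Of 4 tested carriers of serine and neighbouring amino acids, SLC1A5, a neutral amino acid transporter, fell from 507 to 252 CPM (log2 fold change -1.01, adjusted p = 2.046e-05), and SFXN1, the mitochondrial serine carrier, fell by 0.38. SFXN3, a relative of SFXN1, rose by 0.48.

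In salvage, 3 of 15 tested fell (20%) and 0 rose, beside 13.7% lower and 11.9% higher among all genes tested. APRT, which recovers adenine, fell from 186 to 102 CPM (log2 fold change -0.86, adjusted p = 5.656e-05), and UCK2, a uridine and cytidine kinase, fell by 0.48 on that scale, UPP1, a uridine phosphorylase, being the other. Among nucleotide kinases and other enzymes of the deoxynucleotide pool 3 of 8 fell, among them NME1 and SAMHD1, and 2 rose, AK3 and RRM2B. Interconversion and breakdown had 0 lower and 4 higher of 8 tested. DPYD, which begins uracil breakdown, rose from 10.8 to 24.9 CPM (log2 fold change 1.15, adjusted p = 0.00117). GMPR2, which turns GMP back into IMP, rose from 37.1 to 62.3 CPM (log2 fold change 0.75, adjusted p = 0.00214), and AMPD3 and NT5C2, a deaminase and a nucleotidase, also rose. AMPD3 had few counts, 2, 5 and 10 without Dox and 16, 16 and 25 with Dox. The other pentose phosphate genes all had values above 0 and 1 of 5, the ribokinase RBKS, passed the test (log2 fold change 0.95).

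**Figure D4:**
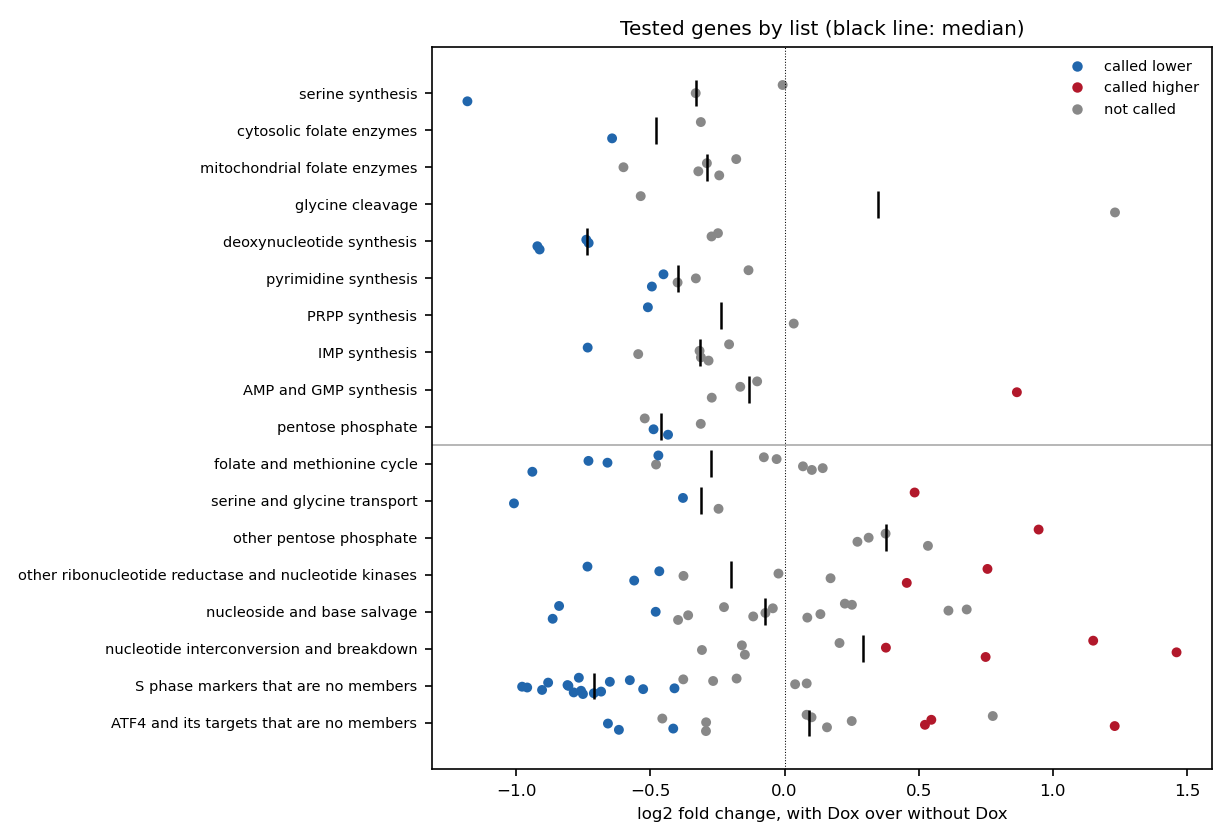
Log2 fold changes (Dox minus no Dox) of the tested genes, 1 point per gene, for the 10 roles of the members (above the horizontal line) and the lists of other genes (below it), with a black line at each median and colours for genes called lower or higher. The median is -0.73 for deoxynucleotide synthesis, -0.71 for the S phase markers that are not members and 0.09 for the ATF4 list.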

How the data were processed

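RNA from 6 samples of 22Rv1-ABHD5 cells was made into 3ʹ mRNA libraries (QuantSeq, named as the FWD kit by the labels and as REV in the study's methods). The deposited values used were raw counts per gene symbol, which the authors made from reads mapped to hg38. The submitters' processing notes name CASAVA 1.8.2, FastQC, STAR, HTSeq and edgeR, and the annotation and strand setting are not given in the sources used here. The deposited normalized values, a signal per gene and library, entered 1 alternative over 12214 genes. Rows that name no gene were left out of the library totals.

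Counts were fitted with edgeR 4.0.16 (R 4.3.3): filterByExpr, TMM factors, quasi-likelihood test, Benjamini-Hochberg over 12233 genes, two-sided, threshold 0.05. CPM are TMM-normalised, and errors are SD over libraries. Log2 ratios within a library used counts plus 0.5, for pairs with a mean of at least 10 counts. Intervals, and the floor of 3 counts, cover these libraries only, since the labels do not say whether the replicates were separate cultures. The study's methods describe no molecular identifiers for the reads. The members, gene lists and tests were chosen with earlier results of these data known. Every member was named, and values in every library were given for members called with at least a 2-fold change, for the member with the smallest adjusted p in each role, for both genes of a pair with a called gene and, chosen after their values were seen, for others such as TK1, DTYMK and CAD. Positions are from GENCODE 44 (hg38), where all 42 symbols matched, ADSS under a newer symbol, and promoters are from RefSeq. Alternatives were DESeq2 1.42.0, 3 other scalings, 2 other filters, the replicate block, the deposited values in limma 3.58.1, and leaving out each library. A few genes of the lists are not reported here by name.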

Additional observations from a re-analysis of the deposited data

How the results depend on the processing

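PHGDH, RRM1, RRM2, TK1, DTYMK, ADSL and IMPDH1 kept their calls in all 14 alternatives, and the other 6 called members lost theirs in 2 or more. Of 12 members lower, 7 were called with library totals alone (without SHMT1, CAD, CTPS1, PRPS2 and PGD), where the median of all genes moved to 0.14 and that of the members to -0.20, 0.34 below it as with TMM, and 65.7% of all calls were higher beside 46.4%. Leaving out 1 library gave 7 to 12, with 7 without Dox replicate 1 (SHMT1, CAD, CTPS1, PGD and TKT lost) and 8 without no-Dox replicate 1 (SHMT1, CAD, CTPS1 and PRPS2 lost). Members higher were 2 with upper-quartile factors, with library totals alone and with no filter, and 1 to 2 with a library left out, AMT being added. The sign changed for PSPH (0.048 with upper-quartile factors, 0.11 with library totals, 0.017 with at least 10 counts in every library, -0.11 to 0.070 with a library left out), PRPS1 (-0.025 to 0.083 with a library left out) and GMPS (0.019 with library totals, -0.25 to 0.098 with a library left out). With a library left out the ratio changes ran from -0.083 to 0.23 for MTHFD1L to MTHFD1 and from -0.12 to 0.14 for RRM2 to RRM1. The cause was not tested. Between libraries of the same replicate number the correlations of deviations were -0.0096, 0.23 and 0.086. Whether replicate numbers pair the libraries is not settled by these values, since unlike numbers were not compared. The replicate block gave 3537 genes called, beside 3125 without it, and 13 members lower, RPIA being added. RPIA was also called lower with no filter and without no-Dox replicate 2 or Dox replicate 3, MTHFD2 (-0.47) and MTHFD2L (-0.80) without no-Dox replicate 2, and GART (-0.40) without Dox replicate 2. AMT ran from 0.70 to 1.65 with a library left out. AMT, GCSH, GLDC, ALDH1L1 and TYMS had few counts.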
